A study of Mus musculus with 8 samples.

Results

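The mitochondrial ribosomal proteins are the nuclear-encoded proteins of the ribosome inside mitochondria. They were taken as all genes with a probe whose symbol, on the array or in its current form, starts with Mrpl or Mrps followed by a digit. The array carried 103 such probes for 77 genes, among 24341 probes in all, of which 73 genes had the symbol on the array and 4 received it as their current symbol. The brightest probe by mean over the 8 arrays represented a gene, and 72 of the 77 genes passed the filter on dim probes, out of 13143 genes and unnamed probes (units) that passed. Total RNA came from 4 spontaneous mammary tumours treated with imiquimod cream and 4 given control cream. Imiquimod, an agonist of the innate immune receptor TLR7, was applied to the skin for 1 cycle. All mice, treated and control alike, carried the strain name FVB/N-TgN (MMTVneu)-202Mul, in which the mouse mammary tumour virus promoter drives the neu oncogene in mammary epithelium. The labels used here state neither the ages of the mice nor how many animals the tumours of each group came from. The p-values therefore reflect the spread among these 8 arrays and no more, and some of that spread may be technical.

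The mitochondrial ribosome makes the few respiratory chain proteins that mitochondrial DNA encodes. All of its proteins are made on cytosolic ribosomes and imported, while its RNA is transcribed in the mitochondrion. It has a small subunit that decodes the messenger RNA and a large subunit that joins the amino acids. Some of its proteins have a counterpart in the bacterial ribosome and others are found in mitochondria alone.

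Of the 72 mitochondrial ribosomal protein genes tested, 4 were lower in imiquimod tumours than in control tumours at the threshold. These were Mrps12, Mrps6, Mrpl49 and Mrpl34, which fell by 0.43 to 0.65 on the log2 scale (limma with Benjamini-Hochberg adjustment over all 13143 units, adjusted p = 0.0239 to 0.0449). No member was higher with imiquimod at an adjusted p below 0.05 by limma, and none at an unadjusted p below 0.05. Of all units, 4.33% were called in either direction, 2.2% lower and 2.13% higher, by the same rule. The share of members called lower was 5.56%. The members were brighter than the units as a whole (median log2 signal 8.91 against 7.19). Brighter units were called lower more often, as given by band of brightness below. The log2 difference was below 0 for 64 of the 72 members (88.9%), against 55.8% of all units. Its median was -0.17 over the members and -0.02 over all units, and an unadjusted p below 0.05 with a lower level was found for 21 members (29.2%) and 11.3% of all units. The members were measured in the same tumours, so these counts are not independent observations. In RNA from whole tumours, fewer cells of a type and less RNA per cell cannot be told apart.

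The 4 members that passed are shown first by their promoters, since they carry the calls. The sequences are from RefSeq (build GRCm38.p6) and run from 250 bases before to 50 bases after the annotated start of the gene, 5′ to 3′ on the strand of the gene. The windows are chr7:28741772-28742071 on the minus strand for Mrps12, chr16:92058086-92058385 on the plus strand for Mrps6, chr19:6057706-6058005 on the minus strand for Mrpl49 and chr8:71464676-71464975 on the plus strand for Mrpl34. Capitals mark exact matches to any of 6 motifs searched on both strands, and matches of different motifs overlapped in 0 of the members' promoters.
Mrps12: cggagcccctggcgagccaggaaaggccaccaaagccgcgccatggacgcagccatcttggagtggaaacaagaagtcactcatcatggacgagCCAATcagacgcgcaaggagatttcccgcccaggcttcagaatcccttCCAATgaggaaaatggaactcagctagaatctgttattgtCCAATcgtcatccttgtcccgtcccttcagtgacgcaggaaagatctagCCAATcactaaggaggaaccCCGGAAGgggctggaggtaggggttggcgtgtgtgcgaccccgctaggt
Mrps6: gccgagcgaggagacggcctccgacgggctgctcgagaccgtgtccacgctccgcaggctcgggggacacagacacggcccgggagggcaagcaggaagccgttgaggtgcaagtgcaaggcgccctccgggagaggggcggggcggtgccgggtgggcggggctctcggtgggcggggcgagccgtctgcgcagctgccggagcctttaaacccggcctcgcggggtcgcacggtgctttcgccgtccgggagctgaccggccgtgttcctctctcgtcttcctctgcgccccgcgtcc
Mrpl49: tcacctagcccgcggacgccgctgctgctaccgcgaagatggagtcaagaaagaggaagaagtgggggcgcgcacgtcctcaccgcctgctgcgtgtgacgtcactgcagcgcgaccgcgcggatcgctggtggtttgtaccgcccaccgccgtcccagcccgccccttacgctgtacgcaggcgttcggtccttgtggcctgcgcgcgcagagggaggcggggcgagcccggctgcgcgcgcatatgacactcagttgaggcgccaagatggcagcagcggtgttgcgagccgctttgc
Mrpl34: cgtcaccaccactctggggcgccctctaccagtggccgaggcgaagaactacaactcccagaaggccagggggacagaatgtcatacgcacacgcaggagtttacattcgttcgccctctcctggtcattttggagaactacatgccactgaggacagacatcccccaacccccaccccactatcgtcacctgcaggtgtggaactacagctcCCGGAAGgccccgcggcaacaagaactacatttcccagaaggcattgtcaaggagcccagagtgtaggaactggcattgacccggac

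The promoter of Mrps12 held 4 copies of CCAAT, the box bound by NF-Y, and 1 copy of CCGGAAG, the core of sites for ETS factors such as GABP. That of Mrpl34 held 1 copy of CCGGAAG, and those of Mrps6 and Mrpl49 held none of the 6 motifs. Across the 68 members with a promoter in the table, CCGGAAG was found in 25 (36.8%), against 11.9% of the 17492 promoters of protein-coding genes. The YY1 motif AAGATGGCG was found in 8 members (11.8%) and in 1.94% of those promoters, and the NRF1 palindrome in 3 (4.41%) and 1.32%. CCAAT was found in 38.2% of members and 39% of all, CACGTG, the E-box bound by Myc and Max, in 7.35% and 7.9%, and TATAAA in 5.88% and 13.3%. Among the 9941 protein-coding genes tested, the share was 15.3% for CCGGAAG, 2.76% for the YY1 motif and 1.65% for NRF1. It was 38.6% for CCAAT, 9.41% for the E-box and 10.3% for TATAAA. The median log2 difference with imiquimod was -0.14 for the 24 tested members with CCGGAAG and -0.16 for the 40 without it. With and without the motif it was -0.17 and -0.15 for YY1, 0.04 (2 members) and -0.17 for NRF1, -0.21 (5 members) and -0.13 for the E-box, -0.19 and -0.13 for CCAAT, and -0.18 (4 members) and -0.15 for TATAAA. These are letter matches in a window and not measured binding sites.

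Mrps12, the small-subunit protein of the decoding centre, had log2 signals of 10.53, 10.46, 10.27 and 10.34 in imiquimod tumours 1 to 4, against 11.34, 10.86, 10.83 and 11.16 in control tumours 1 to 4. All imiquimod tumours lay below all controls. The log2 difference was -0.65 (SE 0.12, adjusted p = 0.0239), the lowest of all 72 members, which corresponds to a change of -36.3% in signal. A dimmer second probe of Mrps12 gave -0.40. Mrps6, the counterpart of bacterial S6, had 10.41, 10.12, 9.84 and 10.14 in imiquimod tumours, against 10.74, 10.69, 10.65 and 10.70 in controls. The controls were tightly grouped and the imiquimod tumours spread widely below them, with imiquimod 3 lowest. Its log2 difference was -0.57 (SE 0.11, adjusted p = 0.0274).

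Mrpl49, a large-subunit protein found in mitochondria alone, had log2 signals of 8.98, 8.84, 8.58 and 8.81 in imiquimod tumours and 9.13, 9.25, 9.19 and 9.40 in controls. The groups did not overlap, and the log2 difference was -0.44 (SE 0.10, adjusted p = 0.0449). Its other 2 probes, which were dimmer, gave -0.14 and -0.15. Mrpl34, the counterpart of bacterial L34 in the large subunit, had 8.66, 8.64, 8.71 and 8.62 in imiquimod tumours, against 9.16, 9.21, 8.86 and 9.14 in controls. The imiquimod tumours were nearly level and control 3 was the nearest control. Its log2 difference was -0.43 (SE 0.09, adjusted p = 0.0274).

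All 4 calls were lost in some of the fits with 1 tumour left out. In these fits the log2 difference was -0.72 to -0.55 for Mrps12 and -0.66 to -0.47 for Mrps6. It was -0.50 to -0.36 for Mrpl49 and -0.51 to -0.39 for Mrpl34. Such fits rest on fewer arrays, and they called 123 to 457 of all units lower, against 289 with all tumours. Leaving out control 4, imiquimod 2, imiquimod 3 or imiquimod 4 ended the call of Mrps12, with an adjusted p of at most 0.0704. For Mrps6 the same happened with each of the controls and with imiquimod 2 or 4 (at most 0.0715). Mrpl49 kept its call when imiquimod 1 was left out and in no other such fit (at most 0.105). Mrpl34 kept it when control 3 or imiquimod 1 was left out (at most 0.0753 otherwise). With an intensity trend in the variance model only Mrps12 of these 4 passed, and with the mean of all probes of a gene Mrpl49 had an adjusted p of 0.106. The direction stayed lower for all 4 in each of the 17 alternatives. The groups do not overlap in these genes, so leaving out or weighting tumours could not have turned it. The intensity trend, the replicate block and the changed filters on dim probes do not change the log2 difference. Centring and quantile normalization hardly moved it (-0.65 for Mrps12 in both). For all these settings the direction is no added evidence. The mean of all probes bears on Mrps12 and Mrpl49 alone, whose probes all gave negative differences.

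**Figure D1:**
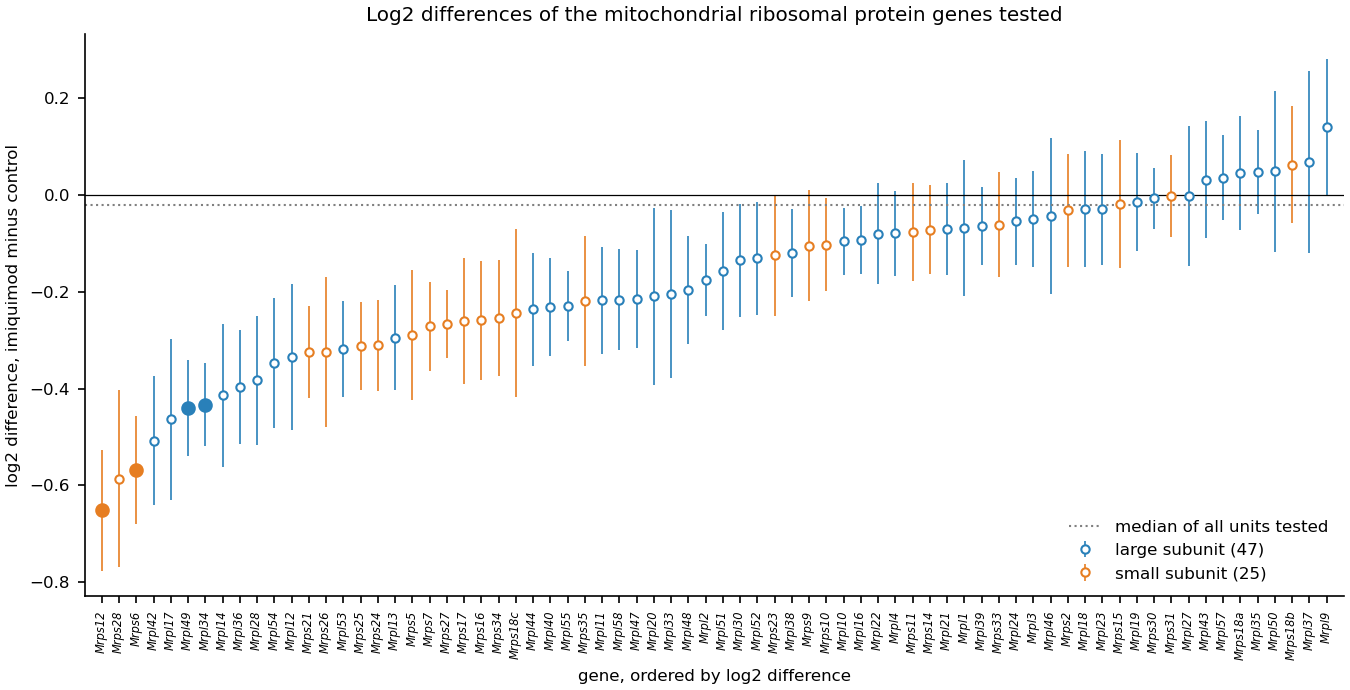
Log2 difference, imiquimod minus control (vertical axis), of the 72 mitochondrial ribosomal protein genes tested, ordered from lowest to highest, with bars of 1 SE from limma. Blue marks the 47 large-subunit and orange the 25 small-subunit genes, filled points are the 4 genes with an adjusted p below 0.05, and the dotted line is the median of all units (-0.02). Of the points, 64 lie below 0.

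The members that did not pass ranged from -0.59 to 0.14. The lowest of these was Mrps28, a small-subunit protein, with 8.93, 8.19, 8.57 and 8.74 in imiquimod tumours and 9.26, 9.53, 8.83 and 9.16 in controls. Imiquimod 1 lay above control 3, and the log2 difference of -0.59 had an SE of 0.18 (adjusted p = 0.111). Mrpl42, a large-subunit protein found in mitochondria alone, had 9.45, 9.18, 9.13 and 9.63 in imiquimod tumours and 9.87, 10.10, 9.67 and 9.79 in controls, without overlap (-0.51, SE 0.13, adjusted p = 0.0686). Mrpl17, the counterpart of bacterial L17 and the brightest member, had 11.47, 11.46, 11.34 and 11.29 in imiquimod tumours and 12.36, 11.57, 11.58 and 11.90 in controls. Here the groups did not overlap either, but control 1 stood high, and the log2 difference of -0.46 had an SE of 0.17 (adjusted p = 0.153).

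At an adjusted p below 0.10, 9 members (12.5%) were lower, against 5.01% of all units. They were the 4 above with Mrpl42, Mrps27, Mrps25, Mrps21 and Mrpl36, the last 4 chosen after their values were seen. Their log2 differences were -0.27 (Mrps27), -0.31 (Mrps25), -0.33 (Mrps21) and -0.40 (Mrpl36). The members were brighter than the units as a whole, and no share by band of brightness was taken at 0.10. At 0.05 the share of all units called lower was 1.02% under a log2 signal of 8 and 4.55% to 5.95% from there up. For Mrps25 all 3 probes gave a lower value with imiquimod, from -0.41 to -0.29. Among the 19 genes with several probes past the filter on dim probes, 4 had a kept probe of the sign opposite to the brightest one.

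All imiquimod tumours lay below all controls for 12 of the 72 members (16.7%), against 7.11% of all units, and all above for 0 members, against 5.52% of all units. By band of brightness, the share of all units below was 11% to 12.8% at a log2 signal of 8 or more, and 5.24% under 8. The 12 were Mrps12, Mrps6, Mrpl42, Mrpl17, Mrpl49, Mrpl34, Mrpl36, Mrps21, Mrpl53, Mrpl13, Mrps27 and Mrpl55, of which those outside the naming rule are listed because the count turns on them.

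**Figure D2:**
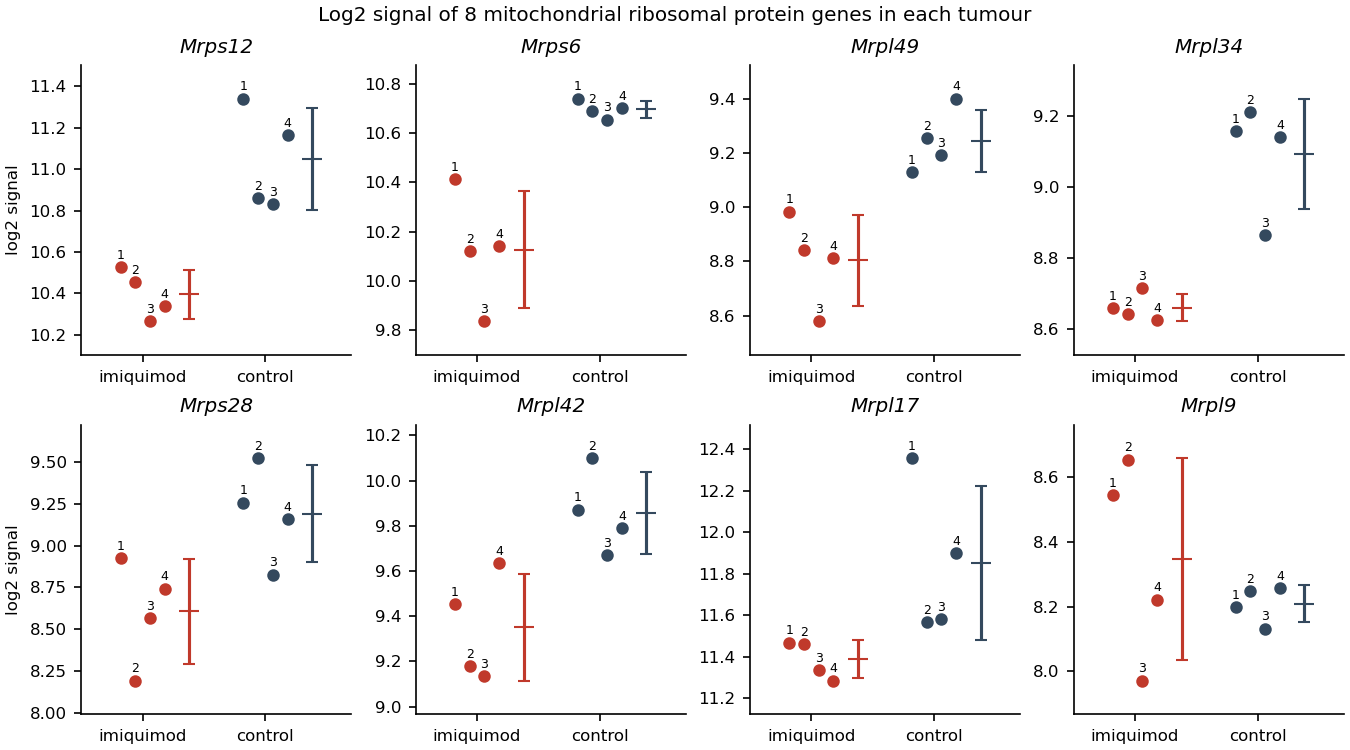
Log2 signal (vertical axis, with a scale of its own in each panel) of 8 members in the 4 imiquimod tumours (red) and the 4 control tumours (dark), numbered by replicate, with the mean and SD beside them. In Mrps12, Mrps6, Mrpl49, Mrpl34, Mrpl42 and Mrpl17 the groups do not overlap, in Mrps28 imiquimod 1 lies above control 3, and in Mrpl9 the imiquimod tumours lie on both sides of the controls.

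Small-subunit genes had a lower median than large-subunit genes. Of 25 small-subunit members, 2 passed the test and 24 lay below 0, with a median log2 difference of -0.25. Of 47 large-subunit members, 2 passed and 40 lay below 0, with a median of -0.13. Of all units, 2.2% were called lower and 55.8% lay below 0. At a log2 signal from 8 to 9, which holds the median signal of both subunits, these shares were 4.55% and 55.1%. Members with a bacterial counterpart had a median of -0.19 (44 genes, 3 called lower), and members found in mitochondria alone had -0.14 (28 genes, 1 called lower). This order did not hold within the large subunit, at -0.12 (28 genes with a counterpart) and -0.13 (19 genes without). Within the small subunit the medians were -0.26 (16 genes with a counterpart) and -0.22 (9 genes without). All 16 tested small-subunit members with a bacterial counterpart lay below 0, from -0.65 to -0.02. The differences between these classes were not tested.

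The 3 stalk proteins of the large subunit, where translation factors dock, had values that did not pass. Mrpl12, the mobile part of the stalk, had 9.58, 9.86, 9.79 and 9.82 in imiquimod tumours and 10.18, 10.49, 9.75 and 9.96 in controls. Control 3 lay within the range of the imiquimod tumours, and the log2 difference was -0.33 (SE 0.15, adjusted p = 0.253). Mrpl11, at the base of the stalk, and Mrpl10, which holds Mrpl12, gave -0.22 (SE 0.11) and -0.10 (SE 0.07). The brightest 4 members were Mrpl17, Mrps24, Mrpl28 and Mrpl33, all with negative differences. Mrps24, the counterpart of bacterial S3, had 10.92, 10.89, 10.97 and 10.91 in imiquimod tumours and 11.37, 11.31, 10.96 and 11.29 in controls. Control 3 was level with the imiquimod tumours and the other controls stood above, for a log2 difference of -0.31 (adjusted p = 0.101). Without control 3 it was -0.40 and passed (adjusted p = 0.024). Mrpl28 and Mrpl33, the counterparts of bacterial L28 and L33, had -0.38 (adjusted p = 0.139) and -0.20 (adjusted p = 0.562). Single tumours set the size of Mrpl33, which was -0.03 without control 2 and -0.35 without control 3. Mrpl12 was -0.20 without control 2, and Mrpl17 was -0.29 without control 1.

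Several members showed values near 0. Of the paralogs of bacterial S18, Mrps18b had 0.06 (SE 0.12) and Mrps18a 0.05 (SE 0.12). The third paralog, Mrps18c, was further from 0 at -0.24 (SE 0.17). None of them passed, and differences among them were not tested. Mrps18c was -0.12 without control 1 and -0.38 without control 3. Mrps18a and Mrps30 carry small-subunit names but sit in the large subunit of the mammalian mitochondrial ribosome. Mrps30 had 9.92, 9.85, 9.91 and 9.87 in imiquimod tumours and 9.93, 9.94, 9.79 and 9.93 in controls. The imiquimod values lay within the range of the controls, with a log2 difference of -0.01 (SE 0.06, adjusted p = 0.965). Mrpl3, close to the peptidyl transferase centre, gave -0.05 (SE 0.10). The highest log2 difference was that of Mrpl9, with 8.54, 8.65, 7.97 and 8.22 in imiquimod tumours and 8.20, 8.25, 8.13 and 8.26 in controls. Imiquimod 1 and 2 were above all controls and imiquimod 3 below them (0.14, SE 0.14, adjusted p = 0.631). It was 0.07 without imiquimod 1, 0.04 without imiquimod 2 and 0.26 without imiquimod 3. Mrpl37, Mrpl50 and Mrpl35 had 0.07, 0.05 and 0.05, and the second probe of Mrpl37 gave -0.26.

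Other members named for their role lay between these. Mrps5, which bears on decoding accuracy in bacteria, had -0.29 (adjusted p = 0.265) and Mrps16 -0.26 (adjusted p = 0.275). Mrps5 was -0.16 without control 1. Mrpl44, which has a ribonuclease III-like domain, had -0.24 (adjusted p = 0.295) and -0.14 without imiquimod 3. Mrpl58, a peptidyl-tRNA hydrolase that frees stalled ribosomes and stood on the array as Ict1, had -0.22 (adjusted p = 0.285).

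The 5 members left out as dim were Mrpl15, Mrpl32, Mrpl45, Mrps22 and Mrps36, whose probes averaged 6.37 to 6.57, under the filter limit of 6.64. Mrpl45 anchors the ribosome to the inner membrane. Mrps36 is now known as a part of the 2-oxoglutarate dehydrogenase complex and not of the ribosome. Whether probes this dim were detected is not known here, so nothing is read from their values.

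The median difference was lowest among the brightest members. Of 12 members with a mean log2 signal of 10 or more, 12 lay below 0, with a median log2 difference of -0.32, against -0.05 over 958 units of that brightness. In the band from 9 to 10 the median was -0.16 for 22 members and -0.04 for all units of the band. From 8 to 9 it was again -0.16 for 22 members, against -0.04 for all units. Below 8 it was -0.07 for 16 members and -0.02 for all units. Of all units, 1.02% were called lower below 8, and 4.55%, 4.94% and 5.95% in the bands from 8, 9 and 10. Of the members, 0 of 16 were called lower below 8, and 1 of 22, 1 of 22 and 2 of 12 above. All imiquimod tumours lay below all controls for 5.24%, 11%, 11.2% and 12.8% of units in these bands. Among members the groups separated in this way for 2, 3, 2 and 5 genes. Whether a background was subtracted from these signals is not stated in the labels used here, and without subtraction the change of dim genes is understated.

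**Figure D3:**
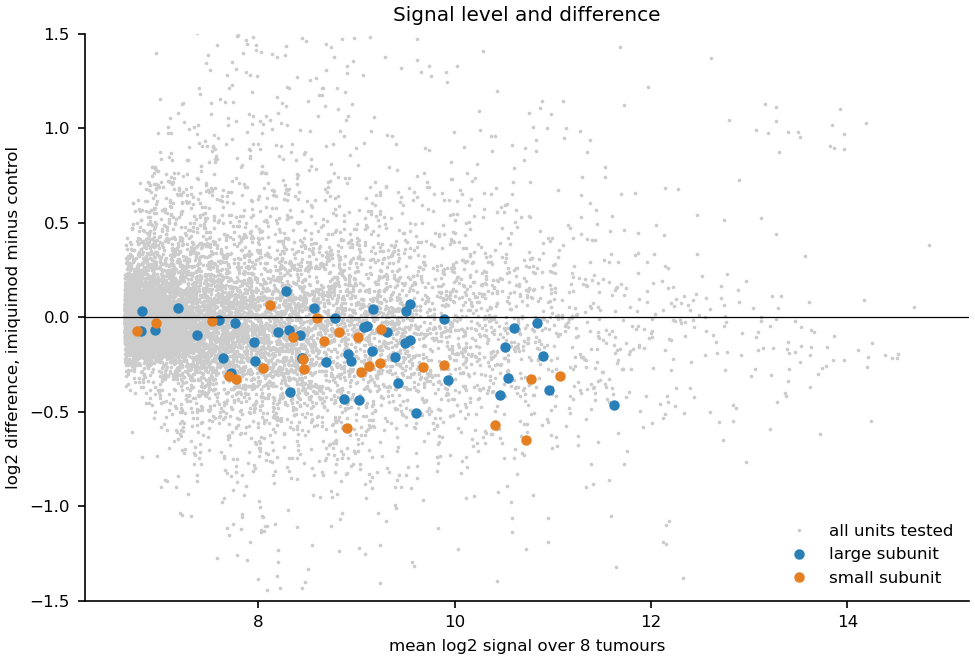
Mean log2 signal over 8 tumours (horizontal axis) and log2 difference, imiquimod minus control (vertical axis), of all units tested (grey) and of large-subunit (blue) and small-subunit (orange) members. Of all units, 116 lie outside the plotted range of 1.5 on either side of 0. The 12 members with a signal of 10 or more all lie below 0.

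Control 3 stood apart from the other controls in these genes. It had the lowest value of the 4 controls for 50 of the 72 members (69.4%), while it was the lowest control for 23.3% of all units. The median deviation of the members from the control mean was -0.07, -0.14, -0.22 and -0.18 in imiquimod tumours 1 to 4, against 0.09, 0.04, -0.20 and 0.04 in control tumours 1 to 4. Control 3 thus lay within the range of the imiquimod tumours, and the 3 other controls lay above all of them. Among imiquimod tumours, number 3 was lowest for 31 members and number 1 highest for 30. The median SD of the members was 0.12 in imiquimod tumours and 0.18 in controls, against 0.12 and 0.13 over all units.

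Without control 3 the median log2 difference of the members was -0.22, and 4 members were called lower, namely Mrps12, Mrpl34, Mrpl54 and Mrps24 (5.56% of members, against 1.64% of all units). The number of members whose imiquimod values all lay below the 3 remaining controls was then 35 (48.6%), against 10.4% of all units. Leaving out a tumour because it was low in these genes raises such a count, so this value, chosen after seeing the data, is a description. Without control 3 the shares of all units were not taken by band of brightness. Without control 1, the control with the highest member level, the median was -0.13.

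The mitochondrial ribosome makes the mitochondrially encoded parts of the respiratory chain. Of 74 nuclear-encoded respiratory chain subunits tested, 13 were called lower and none higher by limma (41 lower and 0 higher at an unadjusted p below 0.05), with a median log2 difference of -0.30. Their median deviation was -0.21, -0.36, -0.37 and -0.31 in imiquimod tumours 1 to 4 and 0.06, 0.08, -0.16 and -0.01 in controls, with control 3 again the lowest control. For 29 of the 74 all imiquimod tumours lay below all controls. This held for 7.11% of all units, and 2.2% of all units were called lower. Among units with a log2 signal of 10 or more these shares were 12.8% and 5.95%. The smallest p-values were those of the ATP synthase genes Atp5g1 (-0.69, adjusted p = 0.00781) and Atp5o (-0.58, adjusted p = 0.0112) and of Ndufc1 of complex I (-0.81, adjusted p = 0.0171). The 73 cytosolic ribosomal protein genes, which build the other ribosome of the cell, had none called (13 lower and 0 higher at an unadjusted p below 0.05) and a median of -0.12. The smallest p-values were those of Rps2 (-0.34, adjusted p = 0.0685), Rpl28 (-0.30) and Rpl21 (-0.43). Their median deviations overlapped between the groups, at -0.02, -0.18, -0.16 and -0.04 in imiquimod tumours and 0.01, -0.16, 0.01 and 0.14 in controls. Here control 2 and not control 3 was the lowest control. The lists differed in brightness. The median log2 signal was 10.39 for the respiratory chain and 12.68 for the cytosolic ribosome, against 8.91 for the mitochondrial ribosomal proteins. The 12 mitochondrial ribosomal protein genes with a signal of 10 or more had a median log2 difference of -0.32. Whether these lists differ from the mitochondrial ribosomal proteins was not tested.

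**Figure D4:**
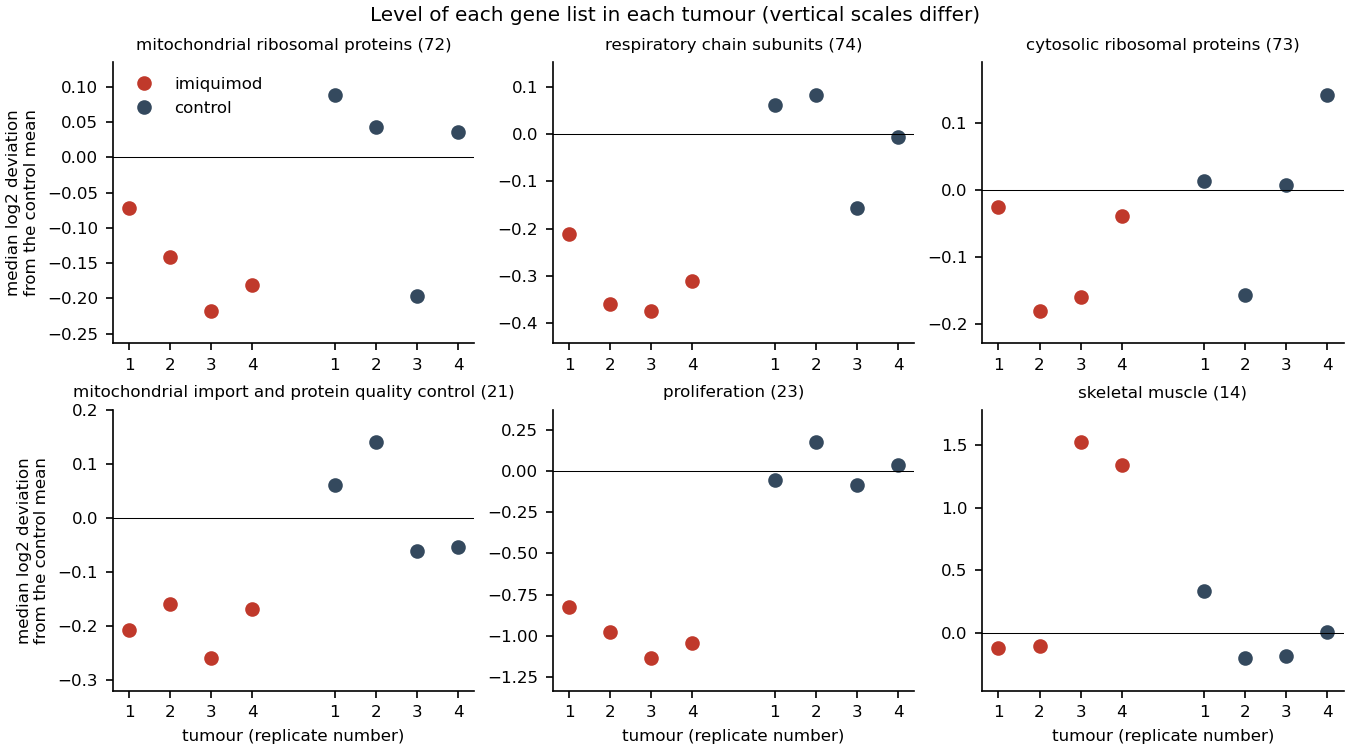
Median over the genes of a list of the log2 deviation from the control mean (vertical axis, with a scale of its own in each panel) in each of the 4 imiquimod (red) and 4 control (dark) tumours. The number of genes tested stands in each title. Control 3 is at -0.20 for the mitochondrial ribosomal proteins, within the imiquimod range, and skeletal muscle markers are at 1.53 and 1.34 in imiquimod 3 and 4.

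Among 5 mitochondrial ribosomal proteins that carry other names, 1 was called lower. Dap3, the small-subunit GTPase-like protein first described in cell death, averaged 10.74 ± 0.12 in imiquimod tumours and 11.23 ± 0.21 in controls (SD, n = 4 each), a log2 difference of -0.49 (limma, adjusted p = 0.0484). In fits on 7 tumours its adjusted p was as high as 0.125. Gadd45gip1, which sits near the exit tunnel, had -0.22 and Ptcd3, an RNA-binding small-subunit protein, had 0.11, and neither passed. The list's median was -0.08.

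The factors that work with the ribosome gave mixed values. Of 12 translation factors, 1 was called lower and none higher by limma (3 lower and 0 higher at an unadjusted p below 0.05), with a median of 0.03. The one called was Tufm, the elongation factor that brings aminoacyl-tRNA to the ribosome, at 9.88 ± 0.19 in imiquimod tumours and 10.34 ± 0.12 in controls (SD, n = 4 each), a log2 difference of -0.46 (limma, adjusted p = 0.0482). It was as high as 0.111 in fits on 7 tumours. Its exchange factor Tsfm had -0.33 (adjusted p = 0.108) and the initiation factor Mtif3 -0.18 (adjusted p = 0.211). The median log2 signal of this list was 7.28, against 8.91 for the mitochondrial ribosomal proteins. Of 17 mitochondrial aminoacyl-tRNA synthetases and related enzymes, 1 was called lower and none higher by limma (3 lower and 2 higher at an unadjusted p below 0.05), with a median of -0.15. It was Vars2, the valyl-tRNA synthetase (-0.33, SE 0.07, adjusted p = 0.0349, and as high as 0.0917 on 7 tumours). Gatb, a subunit of the enzyme that forms glutaminyl-tRNA in mitochondria, had -0.26 and did not pass.

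Of 19 genes of ribosome assembly and ribosomal RNA modification, 2 were called lower and none higher by limma (5 lower and 0 higher at an unadjusted p below 0.05), with a median of -0.14. Tfb1m, which methylates the small-subunit RNA, averaged 7.25 ± 0.08 in imiquimod tumours and 7.61 ± 0.04 in controls (SD, n = 4 each), a log2 difference of -0.37 (limma, adjusted p = 0.0189). Mtg1, a GTPase of large-subunit assembly, had -0.53 (SE 0.11, adjusted p = 0.0311). On 7 tumours the adjusted p was as high as 0.0586 for Tfb1m and 0.0858 for Mtg1. A second GTPase of the large subunit, Mtg2, had -0.27 (adjusted p = 0.081). None of 15 genes of mitochondrial DNA transcription and RNA maturation passed by limma, and none had an unadjusted p below 0.05. Their median was -0.02. The smallest p-values were those of Mterf1a (-0.17), Hsd17b10 (-0.30) and Mtpap (0.16).

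Of 21 genes of mitochondrial import and protein quality control, 2 were called lower and none higher by limma (10 lower and 1 higher at an unadjusted p below 0.05), with a median of -0.20. They were Timm8a1 (-0.43, SE 0.08, adjusted p = 0.0219) and Timm44 (-0.36, SE 0.07, adjusted p = 0.0258), which serve import across or into the inner membrane. On 7 tumours the adjusted p was as high as 0.063 for Timm8a1 and 0.0734 for Timm44. Timm50 had -0.42 and did not pass (adjusted p = 0.0756). For 8 of the 21 all imiquimod tumours lay below all controls, against 7.11% of all units and 11% of units with a log2 signal from 8 to 9. Among 10 regulators of mitochondrial biogenesis, 1 was called and it was higher. Max, the partner of Myc, had 0.40 (SE 0.07, adjusted p = 0.0203, and as high as 0.0621 on 7 tumours). The coactivator Ppargc1a had -0.48 (adjusted p = 0.0933) and the nuclear receptor Esrra -0.36 (adjusted p = 0.128), and the list's median was 0.03.

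Many members start next to another gene on the opposite strand. By RefSeq, 23 of the 68 members with a promoter had a protein-coding neighbour, itself no member, that starts within 1000 bases on the other strand, and for 18 of these pairs both genes were tested. In these pairs 14 members lay below 0 with a median log2 difference of -0.19, and 10 neighbours lay below 0 with a median of -0.01. Mrpl34 and its neighbour Abhd8 had -0.43 and -0.31, and Abhd8 did not pass (adjusted p = 0.102). Mrpl47 and Ndufb5, a subunit of respiratory complex I, had -0.22 and -0.40, neither of which passed. Mrpl49 was called lower while its neighbour Fau, which encodes a cytosolic ribosomal protein, had 0.08 (SE 0.11, adjusted p = 0.749). Mrpl30 had -0.14 (SE 0.12), whereas its neighbour Mitd1 averaged 9.36 in imiquimod tumours and 8.26 in controls and was the 1 neighbour called, with a log2 difference of 1.10 (SE 0.14, adjusted p = 0.0052). These neighbours were named after their values were seen. The neighbour of Mrps12 was Sars2, the mitochondrial seryl-tRNA synthetase, which was not analysed here. Mrpl46 and Mrps11 start next to each other, and had -0.04 and -0.08.

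**Figure D5:**
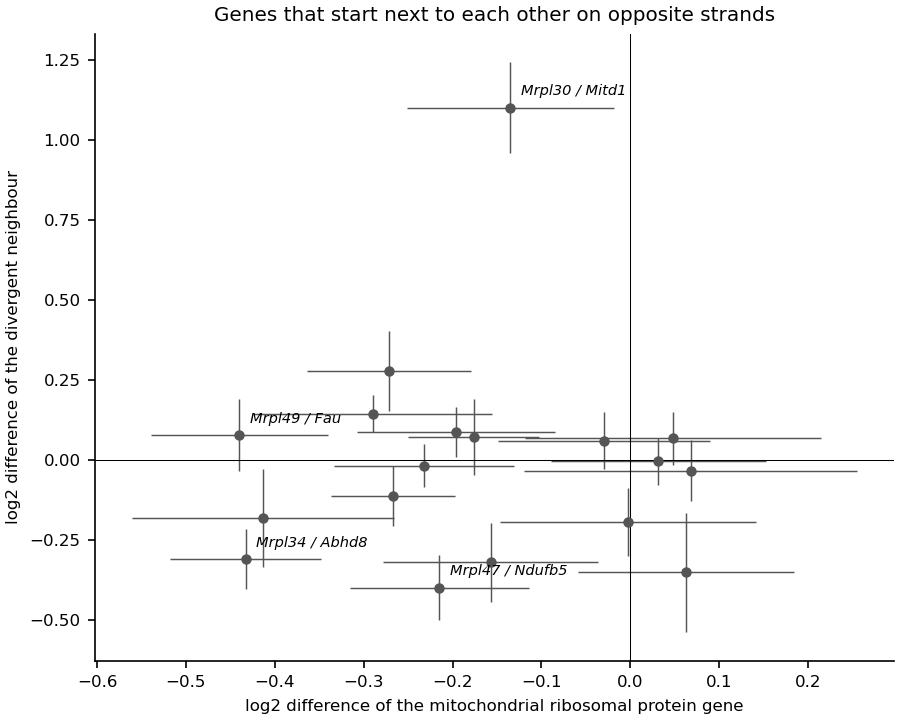
Log2 difference, imiquimod minus control, of a mitochondrial ribosomal protein gene (horizontal axis) and of the gene that starts within 1000 bases on the opposite strand (vertical axis) for 18 pairs, with bars of 1 SE from limma. The pair of Mrpl30 and Mitd1 stands above the rest at -0.14 and 1.10.

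Values of other gene lists in the same tumours are given beside these results. Of 23 proliferation genes, 17 were called lower and none higher by limma (21 lower and 0 higher at an unadjusted p below 0.05). Their median was -0.98 (Tpx2 -0.94, Mki67 -1.23 and Mcm5 -0.99 had the smallest p-values), and control 3 was at -0.08, close to the other controls (-0.05 to 0.17). Of 16 macrophage and monocyte markers, 8 were called higher, with median deviations of 0.45, 0.52, 1.49 and 1.07 in imiquimod tumours 1 to 4 and -0.15 to 0.12 in controls. None of 14 luminal and tumour epithelial markers passed by limma (2 lower and 0 higher at an unadjusted p below 0.05), and their median was -0.01. Their median log2 signal, from means over all tumours, was 8.66. Their levels were 0.00, 0.04, -0.09 and -0.14 in imiquimod tumours 1 to 4 and -0.05 to 0.02 in controls. Skeletal muscle markers were at -0.12, -0.10, 1.53 and 1.34 in imiquimod tumours 1 to 4 and -0.20 to 0.34 in controls, none of 14 passing by limma. Fibroblast and matrix markers were at -0.17, 0.56, 1.10 and 0.59 in imiquimod tumours and -0.14 to 0.08 in controls (1 of 13 called higher, the proteoglycan gene Dcn, at 2.35). Their part in the values of the mitochondrial ribosomal proteins was not tested. Without imiquimod 3 and 4, the tumours with the muscle signal, 55 members lay below 0, their median was -0.10, and no member was called by limma (13 at an unadjusted p below 0.05), while the number of all units called lower was 41 instead of 289.

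The remaining marker lists were as follows. Of 9 neutrophil, 12 lymphocyte, 8 endothelial, 10 adipocyte and 10 milk and secretory markers none passed by limma, with medians of 0.21, 0.03, 0.32, 0.49 and 0.67 (2, 2, 0, 2 and 1 higher at an unadjusted p below 0.05). Of 6 epidermal markers 1 was called higher, the basal keratin gene Krt14 (1.39), with a median of 0.30, and imiquimod 1 stood at 1.20 on that list against -0.02 to 0.08 in the other imiquimod tumours.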

How the data were processed

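Labelled cRNA from each of the 8 tumours was measured on an Illumina bead array. The deposited values are the authors' log2 signals, and array medians all round to 6.82. Of tools, affy is the one that the submitters' processing notes list, with no role. How background was treated is not given in the sources used here. The 16 signal and spread columns of the non-normalized table match no sample label and were not used. Its accessions and symbols named the probes through a table of mouse RefSeq genes, 20038 of them by accession.

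The dimmest 33.3% of probes by mean over all arrays was left out (log2 limit 6.64). The brightest probe represented a gene. Imiquimod and control were compared with two-sided tests in limma 3.58.1 (R 4.3.3), using lmFit and eBayes without covariates, with Benjamini-Hochberg adjustment over 13143 units and a threshold of 0.05. On simulated data with 13143 units it recovered 30 of 50 genes changed by 0.5, 49 of 50 by 1, 50 of 50 by 2 and 49 of 50 by 3, with 10 false calls among 188. The number of arrays limits the precision. Subunits and descent of members are background knowledge.

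Named were members past the threshold, the 5 lowest and 5 highest, the 4 brightest, those left out as dim, members with probes of opposite sign where one passed (there were none), a set fixed by role, and the 3 genes of each comparison list with the smallest p. Other names were chosen after their values were seen. One gene that this rule names is not reported here. The members and lists were chosen with earlier results of these data known. Motifs and neighbours were described without a test. Alternatives covered normalization, the filter, the variance model, array weights, probes, a replicate block, the threshold and tumours left out.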

Additional observations from a re-analysis of the deposited data

Results flagged for a closer look

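In 54 groups of 4 tumours examined (26 named members and the members' median level, in each group), 2 held a tumour far from the others, and chance gives about 1 in 20. Mrpl37 had a log2 signal of 8.88 in control 2, against 9.68 to 9.79 in the other controls. Without that tumour its log2 difference was -0.14, against 0.07 with it. Mrps30 had 9.79 in control 3, against 9.93 to 9.94 in the other controls.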

How the results depend on the processing

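The median log2 difference of the members stayed below 0 in all 17 alternatives, between -0.22 (without control 3) and -0.10 (without imiquimod 3 and 4), and no alternative called a member higher. The intensity trend, the replicate block and dropping the filter on dim probes cannot change this median over the 72 members and bear on the calls alone. Centring and quantile normalization left it at -0.17, on arrays whose medians were already level. The highest signal was also the same within each group (15.07 in imiquimod and 14.86 in control arrays). These settings had little to change, so the unchanged median is no added evidence. The count of members called lower, 4 as reported, was 1 with an intensity trend, 0 without imiquimod 3 and 4 together, 9 at an adjusted p below 0.10 and 0 to 5 with 1 tumour left out. With the replicate number as a block it was 2 (Mrps12 and Mrps6), and since same-numbered tumours did not deviate together (correlations -0.02 to 0.04) the numbers are not read as pairs. Other counts of members called lay within 1.5 times of the reported one. Over all units, 289 were lower and 280 higher as reported. They were 41 and 71 without imiquimod 3 and 4, 658 and 531 at an adjusted p below 0.10, and 123 to 457 lower and 145 to 454 higher with 1 tumour left out. Lower counts with tumours left out rest on fewer samples, and the cause of the other shifts was not tested. Signs near 0 turned for 7 of 26 named members and for Mtpap and Fau among 25 other genes. With 1 tumour left out the log2 difference lay between -0.00542 and 0.0978 for Mrpl35, -0.0987 and 0.172 for Mrpl50, -0.0234 and 0.139 for Mrps18b, -0.142 and 0.159 for Mrpl37, -0.034 and 0.115 for Mrps18a, -0.0422 and 0.00694 for Mrps30, -0.133 and 0.00708 for Mrpl3, and -0.00495 and 0.14 for Fau. Mrpl50 had -0.034 without imiquimod 3 and 4. With the mean of all probes Mrpl37 had -0.095 and Mtpap -0.000479. Few arrays and low signal over background limit what can be said of dim members.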
